A study of Mus musculus with 8 samples.

Results

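The genes described here belong to the synaptic vesicle and SNARE families on a mouse cDNA array. They were chosen by symbol, with earlier results of these data known. The symbols were those of synaptophysin, SV2, synaptogyrins, synapsins, synaptotagmins, VAMPs, syntaxins, the SNAP-25 family and complexins. Stxbp genes, Nsf, Napa, Napb and symbols that start with Rab3 were also taken. The array named 54 such genes on 75 probes, out of 8653 named genes on 12131 spots. By textbook expression, 19 were taken as neuronal (23 probes) and 23 as ubiquitous (37 probes), and 12 were put in neither class (15 probes). The ubiquitous class also holds Rab3d and Vamp5, which are known from secretory cells outside the brain and from muscle. Snap25, Sv2b and Syngr3 were not analysed here.

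The study hybridised brain RNA of 4 mutant males at 19 weeks of age against pooled brain RNA of wildtype males of that age. The series title calls the mutants ADAR2, and the design writes them as ADAR-/-/GluR-BR/R, that is, without the RNA-editing enzyme ADAR2 and with the arginine form of the AMPA receptor subunit GluR-B. Each mutant was put on 2 arrays with Cy5 and Cy3 exchanged, giving 8 arrays in all, with each mouse as 1 replicate (n = 4). The arrays are called Cy5 arrays or Cy3 arrays here after the dye of the mutant. The pool was 1 RNA sample of 4 wildtype mice by the design text, and no test against it holds the spread between wildtype animals. The mutants differ from the pool at both loci, so the effects of the 2 loci cannot be told apart. In RNA of a whole brain, fewer cells of a type and less RNA per cell cannot be told apart.

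Fusion of a synaptic vesicle with the plasma membrane is driven by SNARE proteins. A VAMP on the vesicle pairs with a syntaxin and a SNAP-25 family protein on the target membrane. Complexins and Sec1/Munc18 proteins act on this complex, synaptotagmins are the calcium sensors, and NSF with the SNAP adaptors takes the complex apart after fusion. Neurons use dedicated members (synaptophysin, VAMP1, VAMP2, syntaxin 1A), while nearly all cells use relatives such as VAMP3, SNAP-23 and syntaxin 5 for trafficking through the Golgi, endosomes and cell surface.

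The labels do not settle which dye the deposited log2 ratios have on top. Therefore 2 quantities were computed, both with each array's median subtracted. The mean ratio averages the 2 arrays of a mouse. It compares mutant with pool only if both ratios have the same RNA as numerator, whatever its dye. If the same dye is the numerator on both arrays, the contrast of mutant and pool cancels in the mean ratio, and differences between the dyes remain. The swap component takes a mouse's Cy5 array minus its Cy3 array, divided by 2, and is mutant over pool only if Cy5 is the numerator. If the same RNA is the numerator on both arrays, the contrast cancels in the swap component instead. Signs are therefore those of the deposited numbers, and they do not say whether a transcript was more or less abundant in the mutants. A log2 value of 1 is a 2-fold ratio. A gene is called where limma's adjusted p over all genes is under 0.05, and ± is limma's moderated SE over the 4 mice unless SD is written.

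The 8 arrays held 20211 to 20559 values each, and arrays of the same dye orientation correlated at r = 0.22 to 0.40 (Cy5 arrays) and at 0.43 to 0.68 (Cy3 arrays). The 2 arrays of a mouse correlated at 0.31 to 0.41. Of 3 probes of Adarb1, the gene of ADAR2, those at spots 18422 and 18759 had swap components of -1.23 ± 0.163 and -1.33 ± 0.267 (limma adjusted p = 0.0383 and 0.0424), and the one at spot 14946 had -0.10 (adjusted p = 0.628). Their mean ratios were 0.70 (adjusted p = 0.0297), 0.26 (adjusted p = 0.667) and 0.12 (adjusted p = 0.631). Where these probes lie in the transcript is unknown here, and one outside the deleted part would check nothing. In the mean ratio, 17.5% of all genes tested were called positive and 11.6% negative. Among cell type markers, 11 of 14 neuronal genes (median 0.82) and 6 of 10 astrocyte genes (median 0.72) were called positive. A further 4 of 7 oligodendrocyte genes were called positive (median 0.60), with no negative call in these 3 lists. Positive and negative calls numbered 1 and 3 among 7 microglial or leukocyte genes tested, 1 and 1 among 6 endothelial or pericyte genes, and 1 and 3 among 4 blood genes. Their part in the results below was not tested, and ratios hold no levels with which to check the tissue.

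Neuronal members of the families were called positive in the mean ratio more often than ubiquitous members. Of the 19 neuronal genes, 12 were called positive and none negative, with a median of 0.76. Of the 23 ubiquitous genes, 3 were called positive (Snap47, Rab3gap1 and Rab3d) and 3 negative (Napa, Stx8 and Stx18), with a median of -0.30. Of the 12 genes in neither class, 2 were called positive (Syt7 and Syt14) and 1 negative (Sytl3), with a median of 0.04. In all, 21 of the 54 members were called (38.9%), against 29.1% of the 8605 genes tested, whose median was -0.02. The 17 positive calls (31.5%) stand against 17.5% of all genes, and the 4 negative calls (7.41%) against 11.6%. Among the positive calls, 13 genes had a positive value on all 8 arrays, and no negative call had 8 negative values.

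The subtraction of array medians moves these counts, because the deposited medians lay between -0.57 and -0.0045. Without it, 13 members were called positive and 9 negative, against 28.8% of all genes called, 11.3% positive and 17.5% negative. The neuronal count stayed at 12 positive and 0 negative, and the ubiquitous count became 0 positive and 7 negative, with medians of 0.59 and -0.46 against -0.18 for all genes. All 12 neuronal genes called were the same in both.

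**Figure D1:**
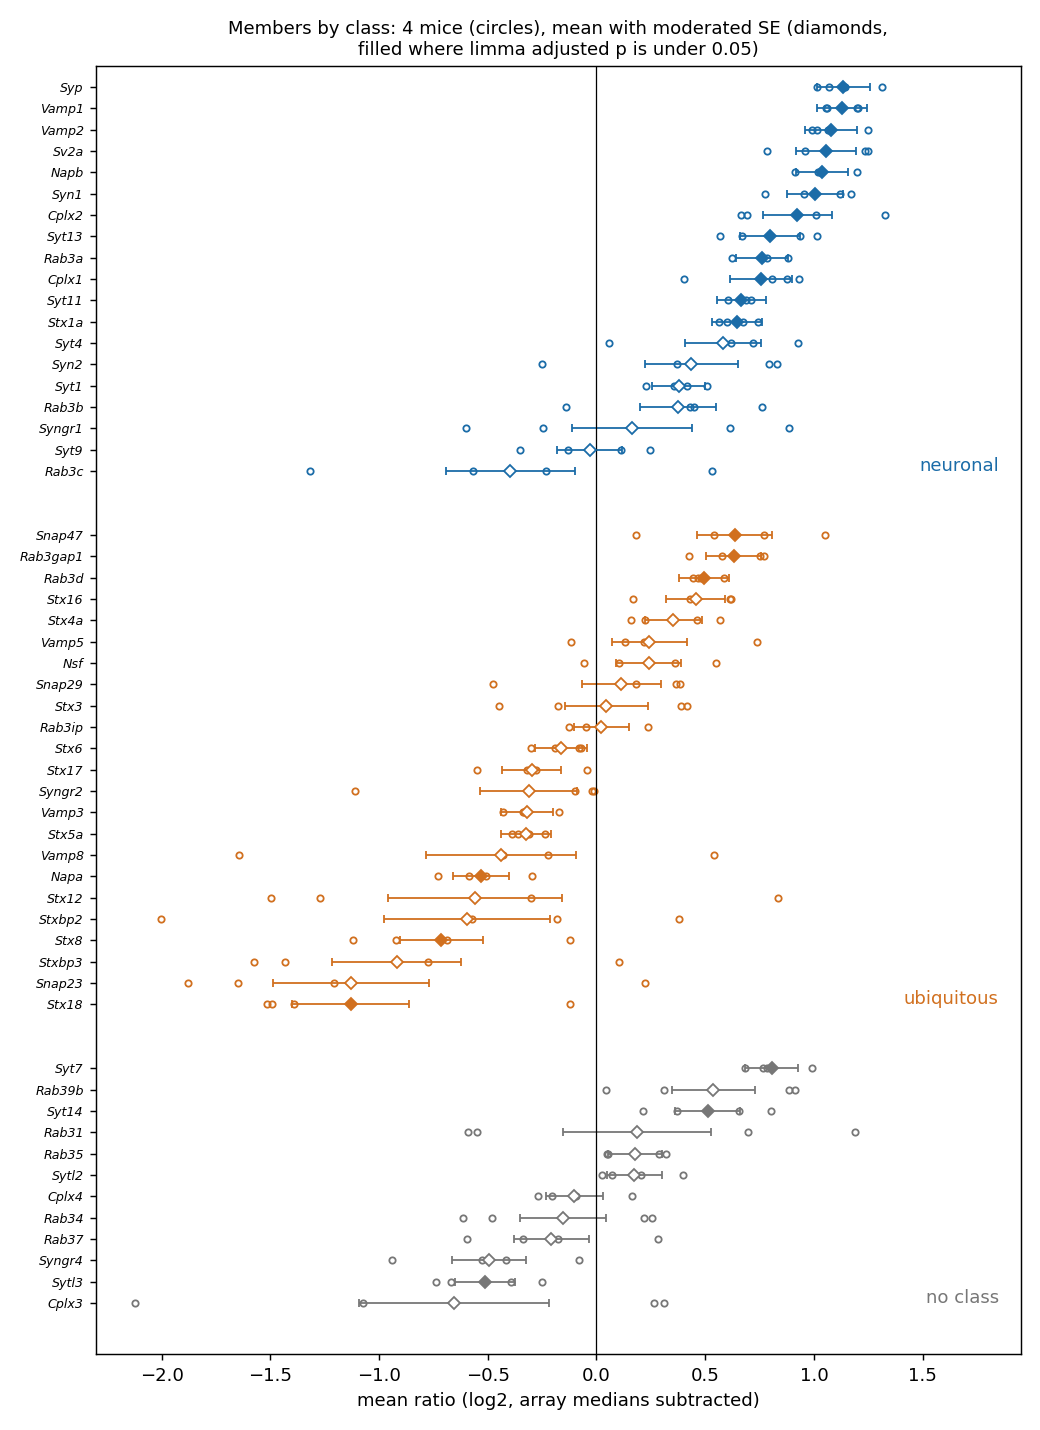
Mean ratio (log2, array medians subtracted) of the 54 members by class, with neuronal members above ubiquitous ones and the 12 others at the bottom. Circles are the 4 mice and diamonds their mean with the moderated SE, filled where limma's adjusted p is under 0.05. The neuronal median is 0.76 and the ubiquitous median -0.30.

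The neuronal median minus the ubiquitous median was 1.05, 0.84, 0.88 and 0.71 in mice 1 to 4 (mean 0.87, SD 0.14). It was positive in all 4 mice, and as the members were chosen with results known, it has no test. On the Cy5 arrays the neuronal medians were 0.27, 0.16, 0.41 and 0.29, and the ubiquitous medians -0.34, -0.21, 0.07 and 0.06. On the Cy3 arrays the neuronal medians were 1.43, 1.27, 1.06 and 0.97, and the ubiquitous medians -0.21, -0.08, 0.04 and 0.16. Neuronal members thus stood above ubiquitous ones on each of the 8 arrays, with larger values on the Cy3 arrays. The difference was 0.39 over the Cy5 arrays alone and 1.21 over the Cy3 arrays alone. The spread over all named genes also differed, with an SD of 0.73 and 1.02 in these orientations.

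**Figure D2:**
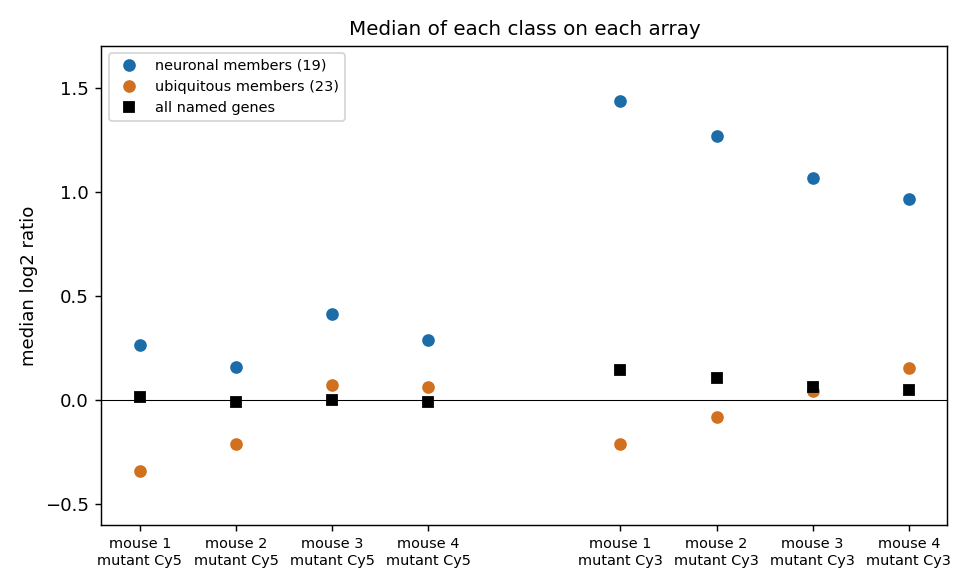
Median log2 ratio (array medians subtracted) of the 19 neuronal members, the 23 ubiquitous members and all named genes on each array, Cy5 arrays on the left and Cy3 arrays on the right. The neuronal medians run from 0.16 to 0.41 on the left and from 0.97 to 1.43 on the right, above the ubiquitous medians on all 8 arrays.

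The classes also differ in where their probes lie. Of the neuronal probes, 19 of 23 lay at spot numbers above 15000, against 8 of the 37 ubiquitous probes, and the level of all named genes moved along the spot numbers. Medians of named spots in windows of 1000 ran from -0.39 (from spot 8001) to 0.39 (from spot 16001). Of the 1861 tested genes with every spot above 15000, 29.8% were called positive, with a median of 0.21. The 16 neuronal genes with every spot there had a median of 0.78 with 11 called positive, and the 3 ubiquitous genes there (Snap47, Rab3d and Stx16) had a median of 0.49 with 2 called positive. The difference within that region was 0.29 instead of 0.87.

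When each run of 48 spots was centred on its own median, 1199 of all 8605 genes were called positive and 753 negative. The difference between the classes was 0.43 there, and 10 of the 54 members were called. These were Syp, Vamp1, Vamp2, Sv2a, Napb, Syn1, Syt13 and Syt11 among the neuronal genes and Rab3gap1 among the ubiquitous ones, all positive, and Stxbp3, which was negative. The neuronal genes Cplx2, Cplx1, Rab3a and Stx1a lost their calls there, and Vamp1, Syn1 and Napb, though still called, had 0.60, 0.57 and 0.63 instead of 1.13, 1.01 and 1.04. The gene names themselves rest on an offset of 11 spots from annotation to value table, which was found in the data. With names read at the same spot number the difference was 0.17.

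**Figure D3:**
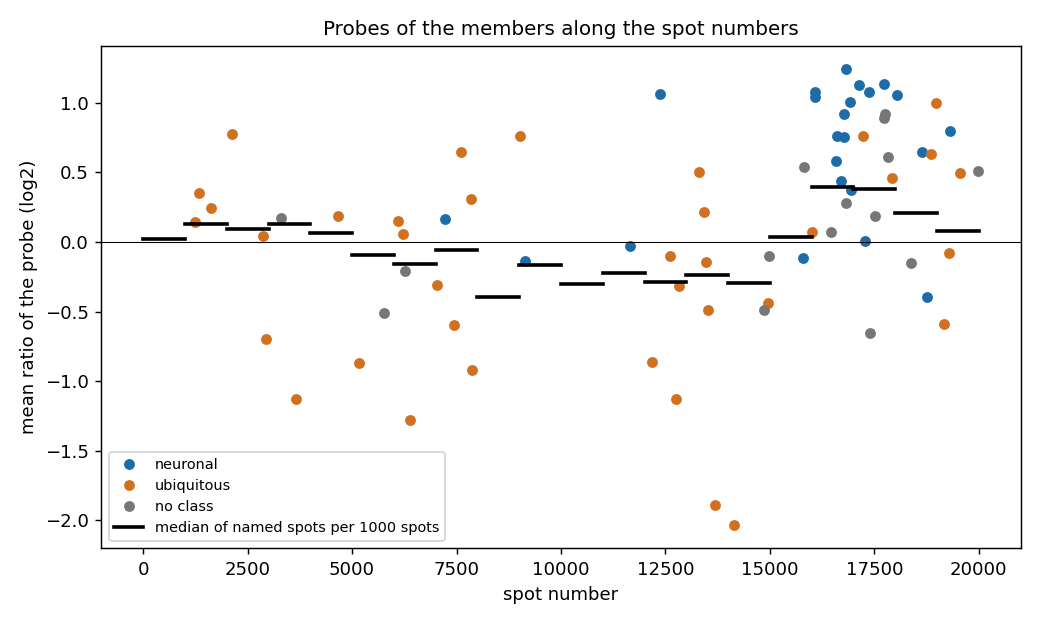
Mean ratio (log2, array medians subtracted) of each member probe against its spot number, coloured by class. Black bars give the median of all named spots per 1000 spots, from -0.39 to 0.39. Of the neuronal probes, 19 of 23 lie above spot 15000, where the bars are above 0, against 8 of the 37 ubiquitous probes.

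Among vesicle membrane proteins, synaptophysin (Syp) and SV2A (Sv2a) were called positive and the synaptogyrins were not called. Syp, the abundant tetraspan protein of synaptic vesicles, had the highest mean ratio of all members. Its array values were 0.21, 0.36, 0.51 and 0.28 on the Cy5 arrays and 1.93, 1.93, 1.51 and 2.35 on the Cy3 arrays. All 8 values were positive, and the 2 dye orientations did not overlap. The mouse means of 1.07, 1.14, 1.01 and 1.31 gave a mean ratio of 1.13 ± 0.122 (limma adjusted p = 0.00755), which ranked 58 of 8605 genes from the top.

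Sv2a, the vesicle glycoprotein that binds the antiepileptic drug levetiracetam, had mouse means of 0.96, 0.78, 1.23 and 1.25. Its mean ratio was 1.06 ± 0.139 (limma adjusted p = 0.00775), with 8 of 8 arrays positive. Synaptogyrin 1 (Syngr1), the neuronal member of its family, had 0.88 and 0.61 in mice 1 and 2 but -0.60 and -0.25 in mice 3 and 4, so that its mean of 0.16 was within their spread (adjusted p = 0.68). Synaptogyrin 2 (Syngr2), the form outside neurons, had -1.11, -0.01, -0.10 and -0.02 (mean -0.31, adjusted p = 0.327), with mouse 1 far below the others. Syngr4 had -0.53, -0.42, -0.08 and -0.94, a mean of -0.49 ± 0.17 (adjusted p = 0.0783).

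Synapsin 1 (Syn1) tethers vesicles in the reserve pool and is a classic target of the neuronal repressor REST. Its array values were 0.46, 0.10, 0.69 and 0.27 on the Cy5 arrays and 1.88, 1.81, 1.55 and 1.28 on the Cy3 arrays. The orientations did not overlap. The mouse means of 1.17, 0.96, 1.12 and 0.78 gave a mean ratio of 1.01 ± 0.13 (limma adjusted p = 0.0076). Synapsin 2 (Syn2) had 0.83, 0.79, 0.37 and -0.25, a mean of 0.44 ± 0.213 that missed the threshold (adjusted p = 0.173), with mouse 4 on the other side of 0.

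Promoters are shown for 3 neuronal genes called in both quantities (Syn1, Syp and Vamp1) and for Rab3d, 1 of the 2 ubiquitous genes (with Stxbp3) whose swap component was called with the opposite sign. They come from RefSeq (GRCm38.p6), which had a promoter for 45 of the 54 members (51 windows), and give the 250 bases before the start that the promoter table uses, 5′ to 3′ on the gene's strand. For Rab3d the RefSeq gene table puts the start further upstream, at 21918199, so the last 16 bases shown lie inside the gene by that table. Capitals mark the letters searched for on both strands: TGACGTCA (a cyclic AMP response element), TTCAGCACC (the first part of the REST element RE1) and GGGCGG (a GC box, CCGCCC where it lies on the opposite strand).
Syn1, chrX:20920919-20921168, minus strand: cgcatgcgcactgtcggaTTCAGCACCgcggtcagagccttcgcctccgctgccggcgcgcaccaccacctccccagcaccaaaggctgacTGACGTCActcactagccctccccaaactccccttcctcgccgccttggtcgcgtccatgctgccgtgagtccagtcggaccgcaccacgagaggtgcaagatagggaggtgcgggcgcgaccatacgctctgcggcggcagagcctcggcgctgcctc
Syp, chrX:7638330-7638579, plus strand: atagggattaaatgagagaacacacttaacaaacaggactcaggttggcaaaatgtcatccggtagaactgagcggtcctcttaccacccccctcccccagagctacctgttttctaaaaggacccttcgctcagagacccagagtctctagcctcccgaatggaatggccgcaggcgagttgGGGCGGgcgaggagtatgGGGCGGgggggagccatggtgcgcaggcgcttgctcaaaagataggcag
Vamp1, chr6:125215331-125215580, plus strand: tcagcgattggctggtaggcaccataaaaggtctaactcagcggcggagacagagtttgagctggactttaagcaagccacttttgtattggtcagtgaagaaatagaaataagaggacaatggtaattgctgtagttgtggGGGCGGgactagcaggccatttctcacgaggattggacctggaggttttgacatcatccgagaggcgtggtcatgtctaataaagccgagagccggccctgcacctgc
Rab3d, chr9:21918184-21918433, minus strand: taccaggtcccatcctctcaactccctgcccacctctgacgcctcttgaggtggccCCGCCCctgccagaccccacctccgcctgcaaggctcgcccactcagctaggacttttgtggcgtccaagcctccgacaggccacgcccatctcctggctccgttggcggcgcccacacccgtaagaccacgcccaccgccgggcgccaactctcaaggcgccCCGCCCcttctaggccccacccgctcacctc

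The Syn1 window holds TTCAGCACC at 232 to 224 bases before the start and TGACGTCA at 159 to 152. TTCAGCACC was in 1 of the 51 member windows, that of Syn1, and in 0.301% of 32851 promoter windows of all genes. TGACGTCA was in 2 member windows, those of Syn1 and Stxbp3, and in 1.55% of all. The GC box was in 13 of 19 neuronal windows (68.4%) and 15 of 24 ubiquitous windows (62.5%), against 32.7% of all windows. In the windows shown it lies at 67 to 62 and 49 to 44 bases before the start of Syp, at 108 to 103 before that of Vamp1, and at 194 to 189 and 31 to 26 before that of Rab3d, all counted from the start in the promoter table. A match is a description of letters, not of a bound site.

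The neuronal vesicle SNAREs Vamp1 and Vamp2 were called positive, and the other VAMPs measured were not called. Vamp1, the form prominent in brainstem and spinal cord, had array values of 0.32, 0.59, 0.41 and 0.68 on the Cy5 arrays and 1.79, 1.81, 1.71 and 1.71 on the Cy3 arrays. Values within each orientation lay close together, and the orientations did not overlap. Its mouse means of 1.06, 1.20, 1.06 and 1.20 gave 1.13 ± 0.116 (limma adjusted p = 0.00755, rank 67). Vamp2, the main vesicle SNARE of the forebrain, had mouse means of 1.06, 0.99, 1.25 and 1.01, and a mean ratio of 1.08 ± 0.12 (adjusted p = 0.00755, rank 112).

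Vamp3 (cellubrevin), the relative that serves recycling endosomes in most cells, had -0.43, -0.17, -0.34 and -0.33, negative in all 4 mice. Its mean ratio of -0.32 ± 0.119 missed the threshold (limma adjusted p = 0.0945), and no Vamp3 mouse mean overlapped those of Vamp1 or Vamp2. Vamp5, known from muscle, had a mean of 0.24 (adjusted p = 0.32). Vamp8, the endosomal VAMP, had a mean of -0.44 (adjusted p = 0.368) and values on 6 arrays, so mice 2 and 3 rest on 1 array each.

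Of 10 syntaxins, the only neuronal one measured, Stx1a, was called positive, and the 9 others ran from -1.13 to 0.46. Stx1a, a target-membrane SNARE of the presynaptic terminal, had mouse means of 0.56, 0.60, 0.68 and 0.74. Its mean ratio was 0.65 ± 0.116 (limma adjusted p = 0.0134), with 7 of 8 arrays positive. The call was lost without mouse 2, 3 or 4 (adjusted p = 0.0555, 0.055 and 0.0512) and with runs of 48 spots centred (0.17, adjusted p = 0.331).

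Stx18, which acts in traffic between Golgi and endoplasmic reticulum, was called negative, with -0.12, -1.49, -1.39 and -1.52 and a mean of -1.13 ± 0.267 (limma adjusted p = 0.0278). Mice 2 to 4 lay together and mouse 1 near 0. The call was lost without mouse 2, 3 or 4 (adjusted p = 0.101, 0.0904 and 0.0932) and with runs of 48 spots centred (-0.65, adjusted p = 0.0819). Stx8, an endosomal syntaxin, had -0.92, -0.69, -1.12 and -0.12, a mean of -0.71 ± 0.192 (adjusted p = 0.0401). Neither of its 2 probes was called alone, with -1.28 at spot 6376 and -0.15 at spot 13476 (adjusted p = 0.0649 and 0.524), and the gene lost its call without mouse 1, 2 or 3 (adjusted p = 0.107, 0.115 and 0.122) and with runs of 48 spots centred (-0.43, adjusted p = 0.126).

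The remaining syntaxins were not called. Stx16 of the trans-Golgi network had 0.46 (adjusted p = 0.053), Stx4a of the plasma membrane 0.35 (adjusted p = 0.0945), and Stx5a of the Golgi -0.32 (adjusted p = 0.0838, limma). Stx3 had 0.05, Stx6 -0.16, Stx17 -0.30 and Stx12 -0.56, the last with mice from -1.50 to 0.83.

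The SNAP-25 family was represented by its ubiquitous members. Snap47, a relative found in many tissues, had mouse means of 1.05, 0.18, 0.77 and 0.54 and was called at 0.64 ± 0.174 (limma adjusted p = 0.042), with 8 of 8 arrays positive. The call was lost without any 1 mouse (adjusted p = 0.0528 to 0.125), with whole-number ratios left out (adjusted p = 0.0548), with array medians kept (adjusted p = 0.0746) and with runs of 48 spots centred (0.14, adjusted p = 0.608). Snap23, the counterpart of SNAP-25 outside neurons, had -1.65, 0.22, -1.21 and -1.88. Of its mice 3 were well below 0 and mouse 2 was above, and the mean of -1.13 ± 0.358 missed the threshold (adjusted p = 0.0628). Without mouse 2 it was called at -1.58 (limma adjusted p = 0.0387), but not without mouse 1, 3 or 4 (adjusted p = 0.161, 0.15 and 0.177). With array medians kept and with the mouse as a random block it was called (adjusted p = 0.0479 and 0.0196). With runs of 48 spots centred it was not (-1.13, adjusted p = 0.0618). Snap29 had 0.11 (adjusted p = 0.661).

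Among SNARE regulators, the 2 brain complexins were called positive and the Stxbp genes were not called. Complexin 2 (Cplx2) had mouse means of 1.01, 0.66, 1.33 and 0.69, and a mean ratio of 0.92 ± 0.159 (limma adjusted p = 0.0121). Complexin 1 (Cplx1) had 0.93, 0.40, 0.81 and 0.88, and a mean ratio of 0.76 ± 0.142 (adjusted p = 0.0147). All mice were positive for both genes. With runs of 48 spots centred, Cplx2 had 0.48 (adjusted p = 0.0785) and Cplx1 0.31 (adjusted p = 0.166), and Cplx1 also lost its call without mouse 3 or mouse 4 (adjusted p = 0.0588 and 0.0558). Of the complexins known mainly from the retina, Cplx3 had -0.66 (adjusted p = 0.293, 7 arrays) and Cplx4 -0.10 (adjusted p = 0.588).

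Stxbp3 (Munc18c), the Sec1/Munc18 protein that pairs with syntaxin 4, had -0.17, -0.74, 0.89 and 0.74 on the Cy5 arrays and -2.98, -2.12, -2.44 and -0.53 on the Cy3 arrays. In every mouse the Cy3 array was the lower one. Its mean ratio of -0.92 ± 0.297 missed the threshold (limma adjusted p = 0.0661), and was called without mouse 4 (-1.26, adjusted p = 0.0362) and with runs of 48 spots centred (-0.91, adjusted p = 0.0369). With whole-number ratios left out it was only -0.36 (limma adjusted p = 0.608). Of its 8 values, 2 were such ratios. Stxbp2 had a mean of -0.59 (adjusted p = 0.28) on 7 arrays, with mouse 1 on 1 array.

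The disassembly machinery split between its neuronal and its ubiquitous adaptor. Napb, the brain form of SNAP (beta-SNAP), had mouse means of 1.03, 1.20, 0.91 and 1.02. Its mean ratio was 1.04 ± 0.12 (limma adjusted p = 0.00755), with 8 of 8 arrays positive. Napa, the alpha form found in all cells, had -0.59, -0.73, -0.51 and -0.30, and a mean ratio of -0.53 ± 0.13 (adjusted p = 0.0308). The mouse means of the adaptors did not overlap. Napa is uncertain, because its probe at spot 7598 was called at 0.65 (adjusted p = 0.0246) and its probe at spot 14145 at -2.04 (adjusted p = 0.00924, 7 arrays). Its gene call was also lost with whole-number ratios left out (-0.36, adjusted p = 0.196), without any 1 mouse (adjusted p = 0.054 to 0.119) and with runs of 48 spots centred (-0.24, adjusted p = 0.185).

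Nsf, the ATPase that these adaptors recruit, had 0.10, -0.06, 0.36 and 0.55 in the mice, a mean of 0.24 ± 0.148 (limma adjusted p = 0.262). Its 4 probes ranged from -0.87 to 0.997. Those at spots 18980 and 9024 were called at 0.997 and 0.76 (adjusted p = 0.00965 and 0.0152), and those at spots 16001 and 5161 were not, at 0.07 and -0.87 (adjusted p = 0.754 and 0.123). With the median of its probes Nsf was called at 0.43 (adjusted p = 0.0414).

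Of 7 synaptotagmins, 4 were called positive and none negative, beside 17.5% and 11.6% of all genes. With runs of 48 spots centred only Syt11 and Syt13 of these were still called. Syt1, the fast calcium sensor of release in forebrain, had mouse means of 0.23, 0.51, 0.36 and 0.42, all positive, and a mean of 0.38 ± 0.12 that missed the threshold (limma adjusted p = 0.0636). Its probes differed, with 1.25 at spot 16825 (adjusted p = 0.00924) and -0.12 and 0.01 at spots 15802 and 17288 (adjusted p = 0.56 and 0.985). Syt11, which does not bind calcium, was called at 0.67 ± 0.114 (adjusted p = 0.0119) with 1.06 and 1.08 at spots 12369 and 17372 (adjusted p = 0.00924 for both) and -0.14 at spot 9146 (adjusted p = 0.528). Without mouse 2 it was not called (adjusted p = 0.0551).

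Syt7, a slow calcium sensor found in neurons and other secretory cells, was the only member with several probes that were all called the same way. Its probes had 0.89, 0.92 and 0.61 (limma adjusted p = 0.00983, 0.00978 and 0.044), and the gene 0.81 ± 0.122 (adjusted p = 0.00922). The mice lay close together, at 0.77, 0.68, 0.99 and 0.79. The probes are near neighbours, at spots 17743, 17761 and 17838, in the region where named genes were higher, and with runs of 48 spots centred the gene had 0.34 and was not called (adjusted p = 0.0817). Syt13 had 0.80 ± 0.136 (adjusted p = 0.0119) and was positive on 8 of 8 arrays, and Syt14 had 0.51 (adjusted p = 0.0498). Syt13 lost its call without mouse 3 (adjusted p = 0.0507). Syt14 lost it without any 1 mouse (adjusted p = 0.0647 to 0.147), with a value needed in only 3 mice (adjusted p = 0.0507), with whole-number ratios left out (adjusted p = 0.0537), with array medians kept (adjusted p = 0.102) and with runs of 48 spots centred (0.06, adjusted p = 0.77). Syt4 had 0.93, 0.72, 0.06 and 0.62, a mean of 0.58 (adjusted p = 0.0551), and Syt9 had -0.03 (adjusted p = 0.885). Of the synaptotagmin-like Rab27 effectors, Sytl3 was called at -0.51 ± 0.139 (adjusted p = 0.0417), and Sytl2 had 0.17 (adjusted p = 0.334). Sytl3 lost its call without any 1 mouse (adjusted p = 0.0757 to 0.121) and with runs of 48 spots centred (-0.48, adjusted p = 0.0876).

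The Rab3 GTPases, which bring vesicles to the release site, did not share 1 pattern. Rab3a, the main form on synaptic vesicles, had mouse means of 0.79, 0.62, 0.88 and 0.76 and a mean ratio of 0.76 ± 0.119 (limma adjusted p = 0.00978). It was positive on 8 of 8 arrays, but with runs of 48 spots centred it had 0.13 (adjusted p = 0.428). Rab3b had 0.38 (adjusted p = 0.157), with mouse 4 at -0.14 and mouse 1 at 0.76. Rab3c had -0.57, 0.53, -0.23 and -1.32, a mean of -0.40 ± 0.298 (adjusted p = 0.348), the lowest of the neuronal members and the most scattered.

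Rab3d, the form of secretory cells outside the brain, had 1.03, 1.35, 1.04 and 1.04 on the Cy5 arrays and 0.14, -0.39, -0.11 and -0.16 on the Cy3 arrays. The orientations did not overlap, and they lay in the reverse order to Syp, Vamp1 and Syn1. Its mean ratio of 0.49 ± 0.115 was called (limma adjusted p = 0.0266), but lost its call without any 1 mouse (adjusted p = 0.071 to 0.0954), with array medians kept (0.33, adjusted p = 0.0821) and with runs of 48 spots centred (0.29, adjusted p = 0.145). On the Cy3 arrays alone it was -0.13.

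Of the Rab3 regulators, Rab3gap1, a subunit of the Rab3 GTPase-activating complex, was called at 0.63 ± 0.127 (limma adjusted p = 0.0176). Its mice had 0.58, 0.77, 0.75 and 0.43, and all 8 arrays were positive. The call was lost without mouse 2 or mouse 3 (adjusted p = 0.0767 and 0.0692) and with array medians kept (adjusted p = 0.0523). Its probe at spot 17231 was called at 0.76 (adjusted p = 0.0169) and that at spot 13304 was not, at 0.50 (adjusted p = 0.0501). Rab3ip (Rabin8), which activates Rab8, had 0.02 (adjusted p = 0.911). The symbols Rab31, Rab34, Rab35, Rab37 and Rab39b match the letters but belong to other Rab subfamilies, and none was called. Rab39b was the highest of these at 0.54 (adjusted p = 0.084), and Rab37 the lowest at -0.21 (adjusted p = 0.4).

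Several members had more than 1 probe, and these often differed. Of 14 such genes, 1 had every probe called with the same sign (Syt7), 7 had a called and an uncalled probe, 5 had none called and 1 (Napa) had called probes of opposite sign. Over all probes of the array, 30.4% were called (6256 of 20595), and how often other genes have mixed probes was not tested. Among the syntaxins, Stx12 had 0.77 at spot 2136 (limma adjusted p = 0.0155) and -1.89 at spot 13684 (adjusted p = 0.139). Stx5a had -0.86 at spot 12182 (adjusted p = 0.0122) and 0.22 at spot 13413 (adjusted p = 0.275). Stx17 had -0.59 at spot 19160 (adjusted p = 0.0278), and -0.49 and 0.19 at spots 13521 and 4653 (adjusted p = 0.0726 and 0.437). These gene means therefore cover probes that did not move together.

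No probe of Stx6, Snap29, Rab3ip or Rab35 was called. Stx6 had -0.70, 0.15 and 0.06, Snap29 0.31 and -0.08, Rab3ip 0.14 and -0.10, and Rab35 0.07 and 0.28. None of these 9 probes lay beyond 0.70 on either side of 0.

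In the swap component, neuronal genes made up all negative calls among the members with the processing used above. Of 51 members tested, 11 were called (21.6%), against 7.9% of the 8119 genes tested. The 8 negative calls (8 of 19 neuronal genes) stand beside 6.82% of all genes, and the 3 positive calls were Stxbp3, Rab3d and Syngr4, against 1.07% of all genes. Neuronal minus ubiquitous medians were -0.28, -0.48, -0.20 and -0.21 in the 4 mice (mean -0.30, SD 0.13). No member was called without array medians subtracted or without any 1 mouse, where limma called 0 of all genes too. With medians kept, 23 of 51 members had an unadjusted limma p under 0.05, against 2423 of 8119 genes. Without a mouse, 18 to 22 of 51 or 52 members had one, against 1781 to 2337 of 8192 to 8240 genes. With whole-number ratios left out, Nsf (-0.51, limma adjusted p = 0.0325) and Syt7 (-0.44, adjusted p = 0.0344), which are not in the neuronal class, were called negative too. Syt7 was also called with probe medians (-0.46, limma adjusted p = 0.048).

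Syp had the most negative swap component of the members, at -0.86, -0.79, -0.50 and -1.04 in the mice and -0.80 ± 0.125 on average (limma adjusted p = 0.0297). All 4 mice were negative. Vamp2 followed at -0.73 ± 0.121, and Vamp1 and Syn1 both stood at -0.63, with SEs of 0.103 and 0.119 (adjusted p = 0.0297 for both VAMPs and 0.0356 for Syn1). Napb had -0.60, Cplx1 -0.58, Sv2a -0.54 and Cplx2 -0.53 (adjusted p = 0.044, 0.0479, 0.0385 and 0.0419). Each of these 8 genes was negative in all 4 mice, and each was also called positive in the mean ratio.

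The positive side held Stxbp3 at 1.40, 0.69, 1.67 and 0.63, a mean of 1.10 ± 0.205 (limma adjusted p = 0.0354), which ranked 16 of 8119 genes from the top. With whole-number ratios left out, Stxbp3 could not be tested in the swap component, which needs all 8 arrays. Rab3d had 0.44, 0.87, 0.58 and 0.60, a mean of 0.62 ± 0.116 (adjusted p = 0.0354, rank 203). Syngr4 had 0.55, 0.59, 0.62 and 0.37, a mean of 0.53 ± 0.106 (adjusted p = 0.0386). All mice were positive for these 3 genes. With runs of 48 spots centred only Stxbp3 was still called, at 0.91 (adjusted p = 0.04995), and the 8 neuronal genes were not.

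The sign of both quantities can be read from the dye orientations. The mean over arrays was positive in both orientations for 16 of 19 neuronal genes, 3 of 21 ubiquitous genes and 34.6% of all genes. The mean of the Cy3 arrays was above that of the Cy5 arrays for 17 of 19 neuronal genes, 13 of 21 ubiquitous genes and 58.2% of all genes. Values equal to ratios of small whole numbers, by which weak spots can be recognised, made up 3.26% of neuronal values and 7.53% of ubiquitous values, and their part in the class difference was not tested beyond leaving them out, which kept 18 member calls.

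**Figure D4:**
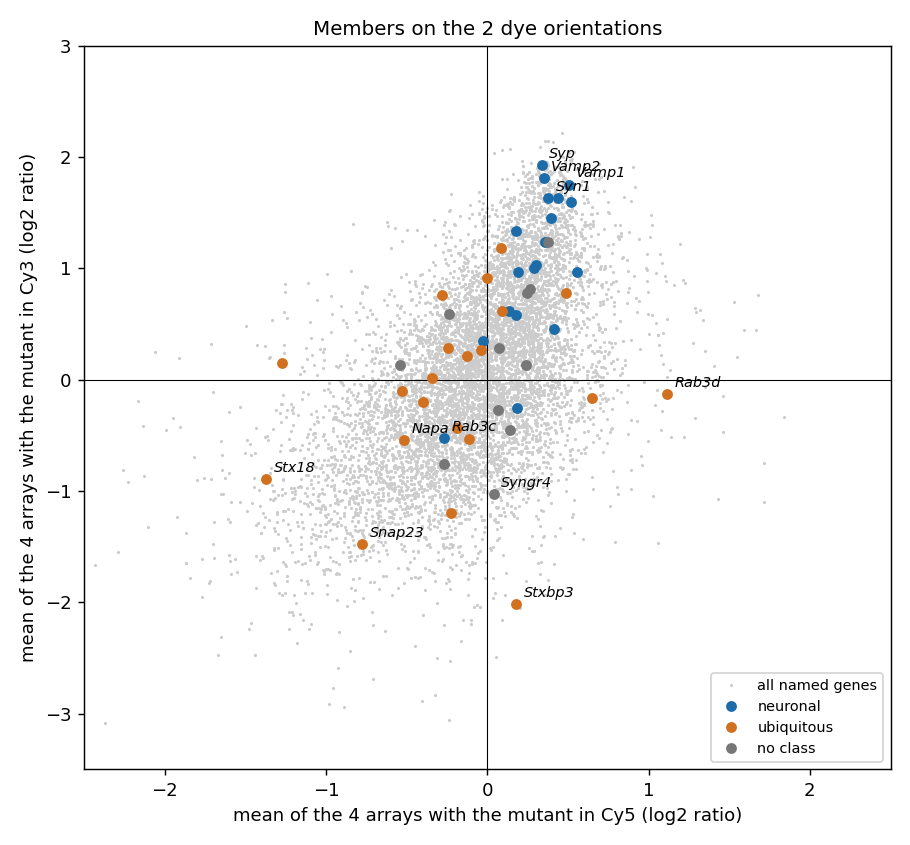
Each member's mean log2 ratio (array medians subtracted) over the 4 Cy5 arrays (horizontal) and the 4 Cy3 arrays (vertical), for 51 members with all 8 arrays, over all named genes in grey. Neuronal genes sit high on the right, with 16 of 19 positive on both axes, Syp at 0.34 and 1.93. Rab3d (1.12 and -0.13) and Stxbp3 (0.18 and -2.02) lie to the lower right.

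Genes of the same pathway outside the families were read from 4 lists. The proton pump (V-ATPase), which energises vesicle filling, had 13 of 16 genes called positive and 1 negative, with a median of 0.80. Its highest values were Atp6v1g2 at 1.09 and Atp6v1a at 1.04, and Atp6v0b was the negative call at -0.90. Its swap component was called negative in 9 genes, beside 6.82% of all 8119 genes tested. The V-ATPase is present in every cell, and its median was close to that of the neuronal members, 0.76. Why these medians are close was not tested.

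Priming and active zone genes had 5 of 18 called positive and 1 negative (median 0.27), with Sncb (beta-synuclein) at 1.04, Rph3a (rabphilin) at 0.84 and Erc2, an active zone scaffold, at -1.02. Vesicle endocytosis genes had 8 of 21 called positive and 2 negative (median 0.21), with Sh3gl3 (endophilin) at 1.12 and Cltc (clathrin heavy chain) at 1.07 on the positive side, and Synj2 at -0.74 and Dnm2, the ubiquitous dynamin, at -0.70 on the negative side. Of 3 vesicle transporters tested, Slc32a1 (the GABA and glycine transporter) was called at 0.93 and Slc18a2 (the monoamine transporter) at -1.12. The shares called positive in these lists stand against 17.5% of all genes.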

How the data were processed

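Per the labels' protocols, total RNA of each brain was isolated on columns and made into cDNA with an indirect Cy3 or Cy5 label for 2-colour cDNA arrays. For the pool, the design text counts 4 animals and the labelling protocol a different number. How arrays were scanned and normalised is not stated in the labels used here. The authors deposited log2 ratios, each array with an additive constant of its own, as inferred from the values. Values at log2 of 100000 plus that constant, a code for an empty denominator, were treated as missing, and 0 columns of values were left unused. No intensities were used here, so precision rests on the number of arrays.

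Names were taken from the platform annotation at a shift of 11 spots, found in the data, up to annotation number 20000. All 12131 were matched to RefSeq (GRCm38.p6) by gene identifier. Array medians were subtracted, the probes of a gene averaged, and 4 mouse values tested against 0 with limma 3.58.1 (R 4.3.3, lmFit and eBayes, Benjamini-Hochberg over all genes, threshold 0.05), after a test of the code on simulated data. A gene needed a value in every mouse for the mean ratio (all 54 members) and on all 8 arrays for the swap component (51 members, without Vamp8, Stxbp2 and Cplx3). Single probes come from a probe fit with its own adjustment.

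The members, classes, pathway lists and marker lists were chosen with earlier results of these data known. The rule gave full values to fixed core genes, to members called in the swap component and to the 6 largest per direction called on all 8 arrays with 1 sign. Other members have means. Alternatives were the deposited centring, centred runs of 48 spots, the mouse as a random block, each dye orientation alone, probe medians, a value in at least 3 mice, whole-number ratios (up to 10, within 0.001 on the log2 scale) left out and each mouse left out. Names at the same spot number and members above spot 15000 were added after seeing the data.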

Additional observations from a re-analysis of the deposited data

Results flagged for a closer look

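Among 44 sets of 4 mouse values examined, 3 had 1 mouse far from the others by Dixon's criterion, which chance gives in about 1 of 20 sets. The swap component of Nsf was -0.17 in mouse 4, against -0.67 to -0.59 in the other mice. The mean ratio of Syngr2 was -1.11 in mouse 1, against -0.10 to -0.01 in the other mice. The swap component of Syt1 was -0.43 in mouse 2, against -0.15 to -0.10 in the other mice. None of these 3 results was called.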

How the results depend on the processing

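The 21 members called in the mean ratio became 10 with runs of 48 spots centred and 12 with names at the same spot number. Of all genes, limma called 1503 positive and 1002 negative with the processing used above. With runs centred these were 1199 and 753, and with names at the same spot number 1283 and 1075. Over the Cy5 arrays (mutant in Cy5) limma called 0 members and 0 of all genes. There 13 of 51 members had an unadjusted limma p under 0.05, against 2007 of 8399 genes. Without 1 mouse the count of members was 11 (without mouse 3), 12 (mouse 2), 14 (mouse 4) or 15 (mouse 1). Of all genes, 742 to 1035 were called positive there and 422 to 707 negative. The count of members was 18 to 24 under the other alternatives, where 975 to 1717 genes were called positive and 905 to 1506 negative. The 11 members called in the swap component became 0 as deposited and 0 without any 1 mouse, where 0 of all genes were called too. They became 0 with names at the same spot number and 1 with runs of 48 spots centred. With whole-number ratios left out, 9 of 38 members were called negative and 2 positive, beside 803 and 136 of 6176 genes. With a value in at least 3 mice these were 6 and 3 of 53 members, beside 454 and 59 of 8523 genes. With probe medians they were 10 and 3 of 51 members, beside 634 and 105 of 8119 genes. Of all genes, 554 were called negative and 87 positive with the processing used above. These became 317 and 75 with names at the same spot number, and 236 and 39 with runs centred. With names at the same spot number, 13 of 47 members had an unadjusted limma p under 0.05, against 2256 of 8041 genes. The neuronal minus ubiquitous difference of 0.87 in the mean ratio was 0.43 with runs of 48 spots centred, 0.29 above spot 15000, 0.17 with names at the same spot number, 0.39 over the Cy5 arrays, 1.21 over the Cy3 arrays and 0.81 to 0.92 without 1 mouse. That of the swap component was -0.10 with runs of 48 spots centred and -0.33 to -0.23 without 1 mouse. With runs centred, the medians of the gene values over the 4 mice were -0.16 (neuronal) and -0.18 (ubiquitous). The sign of that difference thus depended on how the medians were taken. Rab3d turned to -0.13 in the mean ratio over the Cy3 arrays. Names at the same spot number and the region above spot 15000 were chosen after seeing the data. The causes were not tested. No paired analysis was possible because the labels hold 1 group, the mutants, with a number of its own for each array, and the control is a single pool. With the mouse as a random block (correlation of a mouse's arrays -0.15) the count was 24. No signal over background was available, so weak spots limit single genes to an unknown extent.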
